A study of Mus musculus with 6 samples.

Results

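Cd86 and 8 other genes for surface molecules through which B cells give or receive signals at the contact with T cells were examined, 9 of the 41053 gene names counted. They are Cd86, Cd80, Icosl, Cd274 and Pdcd1lg2 of the B7 family, Cd40 and Tnfsf9 of the TNF receptor and ligand families, and Cd83 and Slamf1. The genes were picked by name after Cd86 had been seen to differ between the genotypes, so their genotype differences are a description. Where a call between the genotypes is mentioned for them, nothing is read from it. All 9 had counts in every library and passed the filter on low counts.

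RNA was sequenced from naive B cells of the mouse spleen, with 3 libraries of the TET2 knockout genotype and 3 of the wild-type genotype. TET2 is an enzyme that oxidizes methylated cytosine in DNA. Both groups were of the C57BL/6 strain and neither was treated, and the libraries carry the numbers 2, 3 and 4 in each genotype. The labels give no age or sex, do not say which part of Tet2 is deleted or in which cells, and do not say whether each library came from a separate animal, so p-values rest on a spread among libraries that could be technical.

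Library totals ran from 35101788 to 45401781 counts, and the typical SD of a tested gene within a genotype was 0.16 in log2 CPM (counts relative to the library total). The genotypes also differed in sex-linked transcripts: 4 Y-linked genes summed to 101 to 188 CPM in the knockout libraries and to at most 0.227 CPM in wild type, and Xist stood at 802 to 886 CPM in knockout and 1442 to 1536 in wild type. Genotype and this difference cannot be told apart in any comparison of the genotypes. Tet2 transcripts were present in both genotypes (50.01 to 64.8 CPM in knockout, 56.8 to 83.2 CPM in wild type), and a count over all exons does not check the deletion. The 2 libraries numbered 4 stood apart from the other 4 libraries in 14.8% of the 13604 tested genes, against 0.404% for genotype (edgeR's quasi-likelihood test, adjusted p under 0.05). Results are therefore also given within the library numbers. B cell markers were high in every library, with 10 genes summing to 20720 to 24117 CPM in knockout and 19585 to 20924 in wild type. Of 11 T cell markers 9 had means under 1 CPM and Cd3e did not exceed 0.0722 CPM. Cd3d had 0.278 to 0.635 CPM in knockout and 0.158 to 0.257 in wild type. Its genotypes did not overlap, a property of 18.5% of all tested genes. Of the 5 T cell markers tested, 3 had positive differences and 2 negative. The list summed to 51.0 to 68.2 CPM in knockout and 49.0 to 53.7 in wild type, most of it the kinase gene Lck (46.2 to 64.8 CPM). The neutrophil markers together did not exceed 0.963 CPM.

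CD86 and CD80, also called B7-2 and B7-1, bind CD28 on T cells and deliver the costimulatory signal that accompanies antigen recognition, while CTLA4 competes for the same ligands. ICOSL engages ICOS, which supports follicular helper T cells, and PD-L1 (the product of Cd274) and PD-L2 (the product of Pdcd1lg2) engage the inhibitory receptor PD-1. CD40 on the B cell receives CD40 ligand from the T cell. A resting naive B cell carries little CD86 and CD80 on its surface, and both are raised after stimulation through the antigen receptor, CD40 or Toll-like receptors.

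Promoter sequence was at hand for 5 of the 9 genes in RefSeq (GRCm38.p6): Icosl, Cd80, Cd274, Pdcd1lg2 and Slamf1. Those of 4 B7 ligands are shown. They were chosen as the most and the least abundant transcript among the B7 genes of the set and the neighbouring pair of PD-1 ligands. They are also shown because CpG is the dinucleotide on whose cytosine TET2 acts. Each line gives the 250 bases before the annotated start, 5′ to 3′ on the plus strand, with CpG in capitals. The windows are chr10:78069118-78069367 for Icosl, chr16:38458683-38458932 for Cd80, chr19:29367188-29367437 for Cd274 and chr19:29410669-29410918 for Pdcd1lg2.
Icosl: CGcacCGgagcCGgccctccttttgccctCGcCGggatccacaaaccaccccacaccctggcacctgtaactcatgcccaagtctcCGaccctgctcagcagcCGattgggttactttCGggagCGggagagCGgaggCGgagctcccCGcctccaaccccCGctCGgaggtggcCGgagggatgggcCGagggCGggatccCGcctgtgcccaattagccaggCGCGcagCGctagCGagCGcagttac
Cd80: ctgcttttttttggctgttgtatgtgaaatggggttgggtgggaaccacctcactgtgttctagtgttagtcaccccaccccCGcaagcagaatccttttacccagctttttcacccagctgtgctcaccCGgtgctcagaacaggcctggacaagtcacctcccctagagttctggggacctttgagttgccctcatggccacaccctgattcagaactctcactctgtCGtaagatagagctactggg
Cd274: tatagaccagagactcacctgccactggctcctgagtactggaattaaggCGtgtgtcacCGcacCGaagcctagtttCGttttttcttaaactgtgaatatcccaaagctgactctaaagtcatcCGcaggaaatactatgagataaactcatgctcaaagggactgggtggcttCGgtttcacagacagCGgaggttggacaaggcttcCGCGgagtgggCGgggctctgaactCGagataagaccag
Pdcd1lg2: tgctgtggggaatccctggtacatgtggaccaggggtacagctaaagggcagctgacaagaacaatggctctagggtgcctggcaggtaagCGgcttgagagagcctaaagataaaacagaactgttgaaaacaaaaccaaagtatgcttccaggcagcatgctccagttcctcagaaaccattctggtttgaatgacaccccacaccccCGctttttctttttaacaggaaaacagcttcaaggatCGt
The Icosl window held 23 CpG, more than 86.7% of the 32851 promoter windows in the table, whose median was 6. Cd274 had 11 CpG, and Cd80, Pdcd1lg2 and Slamf1 had 3 each, more than 29.0% of windows. Cd274 and Pdcd1lg2 lie 22823 bases apart on chromosome 19 and differ in CpG content. On both strands, the interferon-response motif (GAAA, any 2 bases, GAAA; found in 2.98% of all windows) and the STAT motif TTCNNNGAA (7.02%) matched none of the 5 windows. The NF-kB consensus (7.25% of all windows) matched in Icosl and Pdcd1lg2 and not in Cd80, Cd274 or Slamf1. A match describes the letters only, and methylation was not measured here.

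The levels of the 9 genes differed widely, whereas the genotypes differed little in most of them. Per summed exon length (RPKM, the CPM divided by the exon length in kilobases), Icosl was highest, with 245 ± 20.2 RPKM in knockout and 254 ± 24.0 RPKM in wild type (mean ± SD, n = 3 each, as for all means below). It exceeded 99.0% of tested genes by level. Cd83 followed at 219 ± 33.7 and 178 ± 45.1 RPKM, and the ranges of Icosl and Cd83 over the libraries overlapped. Cd40 came next at 44.8 ± 1.39 and 45.2 ± 2.49 RPKM, with Cd83 at 4.41 times its level and no overlap. Cd274, Slamf1, Cd86 and Pdcd1lg2 formed a middle group in that order of mean level over all 6 libraries, and each overlapped with the next. In wild type alone Pdcd1lg2 (9.68 ± 1.52 RPKM) had a higher mean than Cd86 (8.73 ± 1.79 RPKM), and in knockout a lower one (10.98 ± 0.488 against 16.2 ± 0.713 RPKM). Tnfsf9 and Cd80 were close to the lower end of what could be tested, above 20.9% and 12.3% of tested genes. Pdcd1lg2 stood at 11.2 times the RPKM of Tnfsf9.

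**Figure D1:**
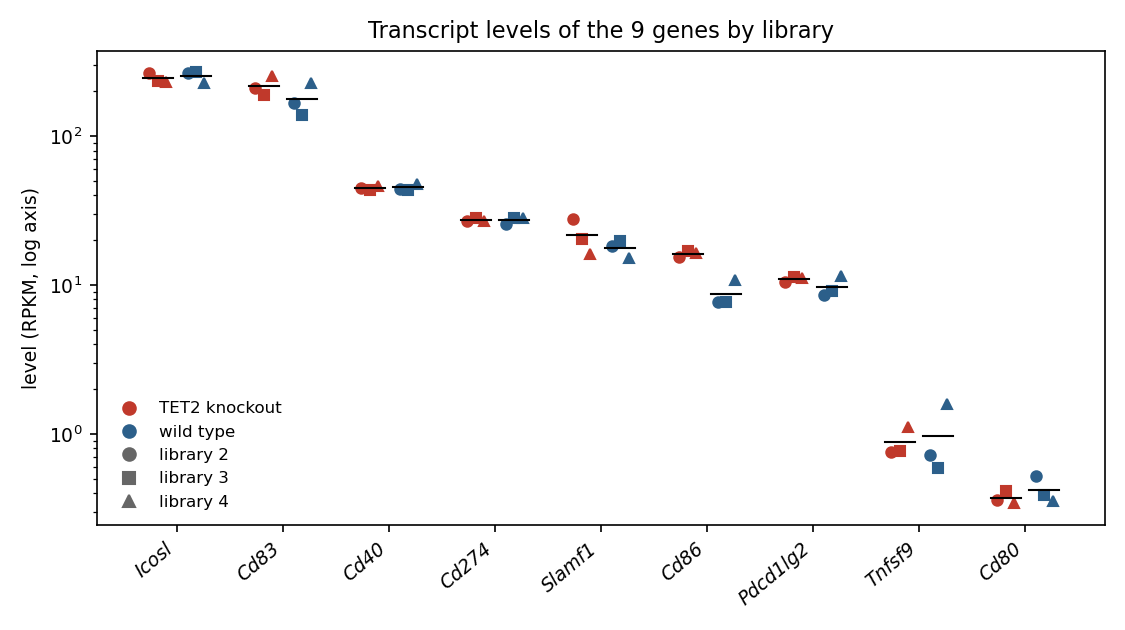
Level of each of the 9 genes in RPKM on a log axis, by gene in order of mean level. Each point is 1 library (red, TET2 knockout; blue, wild type; the symbol gives the library number) and the black line is the mean of 3 libraries; the genotypes separate only in Cd86, and Cd83 lies at 4.41 times the mean level of Cd40, the next gene.

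Cd86 (chromosome 16, 36603869 to 36666081, minus strand, GRCm38) encodes the B7 ligand whose transcript was the more abundant of the CD28 ligands. The knockout libraries numbered 2, 3 and 4 had 56.6, 61.8 and 59.9 CPM, and the wild-type libraries 28.4, 28.0 and 39.5 CPM. Every knockout library was above every wild-type library, and among the wild-type libraries number 4 was the highest. The raw counts behind these values were 2370 to 2568 in knockout and 1232 to 1384 in wild type. The fitted difference was 0.90 on the log2 scale (SE 0.13), a ratio of 1.86. Per length the level was 16.2 ± 0.713 RPKM in knockout and 8.73 ± 1.79 RPKM in wild type. In bulk RNA, more cells that carry Cd86 and more Cd86 RNA per cell cannot be told apart.

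Cd86 was 1 of 55 genes called in the comparison of genotypes (0.404% of those tested), and since that call led to the choice of genes nothing is read from it. The call also depended on which libraries were used. It was lost without knockout library 2 (17 genes called in all), knockout library 3 (26), wild-type library 2 (22) or wild-type library 3 (21). It was made without knockout library 4 (146) or wild-type library 4 (900). The size of the difference stayed between 0.80 and 1.08 in these 6 fits. Within the libraries 2 and 3 the genotype difference of Cd86 was 1.07, and within the libraries 4 it was 0.60. The test of that change, which did not take part in choosing the genes, gave −0.47 (SE 0.12, edgeR unadjusted p = 0.00136, adjusted p = 0.0662), just short of the threshold, and 1.19% of tested genes passed it. With no filter on low counts the same test passed (edgeR adjusted p = 0.0118).

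Other cells of the spleen carry more Cd86 than naive B cells do, dendritic cells among them. Of 10 dendritic cell markers 7 had means under 1 CPM, and the list summed to 215 to 336 CPM in knockout and 202 to 288 in wild type, most of it Ccr7 (197 to 330 CPM), which B cells also express. The other 9 markers summed to 5.61 to 6.67 CPM in knockout and 4.84 to 5.82 in wild type. Itgax, which encodes the dendritic cell integrin CD11c, had 1.20, 0.938 and 0.808 CPM in knockout and 0.475, 0.636 and 0.314 in wild type, without overlap. Its log2 difference was 1.03 (edgeR adjusted p = 0.247). Of the 6 dendritic cell markers tested, 5 had positive differences and 1 negative. The 12 macrophage and monocyte markers found summed to 29.9 to 42.8 CPM in knockout and 34.1 to 41.0 in wild type. Of the 11 tested, 10 had negative differences, among them Lyz2, which encodes lysozyme, with 4.93 to 6.55 CPM in knockout and 7.33 to 10.1 in wild type, while Emr1, which encodes F4/80, had 10.8 to 14.6 and 8.51 to 9.82 CPM. Plasma cell markers summed to 164 to 181 CPM in knockout and 145 to 176 in wild type, most of it Xbp1 (108 to 150 CPM). Of the 6 tested, 2 had positive differences and 4 negative. The 2 positive ones were Ighg3, with 6.16 to 8.42 and 3.41 to 4.46 CPM without overlap, and Igj. Igj, the J chain gene, had 11.1 to 32.8 and 4.91 to 13.3 CPM. Germinal centre B cell markers summed to 165 to 199 CPM in knockout and 183 to 203 in wild type, most of it Bcl6 (140 to 180 CPM). All 8 were tested, and 7 had positive differences and 1, Bcl6, a negative one. No marker of the 9 lists passed the threshold between genotypes by edgeR. An unadjusted edgeR p under 0.05 was found for 9 markers and for 13.4% of all tested genes. The genotypes did not overlap in 18.5% of all tested genes. The part of any of these cells in the Cd86 difference was not tested.

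Cd80 (chromosome 16, 38458933 to 38486933, plus strand) lies on the same chromosome as Cd86, 1792851 bases away. It had 0.613, 0.698 and 0.581 CPM in the knockout libraries 2, 3 and 4 and 0.883, 0.659 and 0.599 CPM in wild type, from 21 to 39 counts per library. The genotypes overlapped, and wild-type library 2 was the highest. The log2 difference was −0.18 (SE 0.27), and it ranged from −0.29 to 0.00 with each library left out in turn. With so few counts, differences of Cd80 well beyond the size of this SE could also go uncalled. The ratio of Cd86 to Cd80 in RPKM was 44.0 ± 3.49 in knockout and 21.8 ± 8.04 in wild type.

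Icosl (chromosome 10, 78069360 to 78079525, plus strand) supplied most of the transcript of the B7 ligands in the set. Its levels were 739, 643 and 642 CPM in the knockout libraries 2, 3 and 4 and 736, 741 and 624 CPM in wild type. The genotypes overlapped, and in both of them library 4 was the lowest. The log2 difference was −0.05 (SE 0.10). Added over Cd86, Cd80, Icosl, Cd274 and Pdcd1lg2, the B7 ligands came to 299.6 ± 18.8 RPKM in knockout and 300.4 ± 20.1 RPKM in wild type. Icosl made up 81.6 ± 1.59% of that sum in knockout and 84.5 ± 2.47% in wild type. The share of Cd86 was 4.81, 5.82 and 5.69% in the knockout libraries and 2.50, 2.43 and 3.89% in wild type, again without overlap. For each unit of Cd86 RPKM there were 15.1 ± 1.92 of Icosl in knockout and 30.2 ± 7.99 in wild type.

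Cd274 (chromosome 19, 29367455 to 29388095, plus strand), which encodes PD-L1, was the steadiest of the 9 genes. It had 98.0, 102 and 96.8 CPM in the knockout libraries 2, 3 and 4 and 93.2, 102 and 102 CPM in wild type. The libraries of both genotypes were interleaved, and the SD within a genotype was 0.06 in log2 CPM. The fitted difference was −0.00 (SE 0.07), and its sign depended on the processing. Pdcd1lg2 (chromosome 19, 29410919 to 29471157, plus strand), which encodes PD-L2, had 17.1, 18.6 and 18.4 CPM in knockout and 14.1, 14.9 and 18.8 in wild type. Wild-type library 4 alone reached the knockout values. Its log2 difference was 0.18 (SE 0.12) over all libraries, 0.30 within the libraries 2 and 3, and −0.03 within the libraries 4. The ratio of Cd274 to Pdcd1lg2 in RPKM was 2.49 ± 0.106 in knockout and 2.86 ± 0.340 in wild type.

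Cd40 (chromosome 2, 165055627 to 165072948, plus strand), the receptor for T cell help, had 153, 148 and 157 CPM in the knockout libraries 2, 3 and 4 and 150, 149 and 164 CPM in wild type. The libraries of both genotypes overlapped throughout. The log2 difference was −0.01 (SE 0.07), with a sign that depended on the processing. Tnfsf9 (chromosome 17, 57105385 to 57107757, plus strand), which encodes the ligand of the T cell receptor 4-1BB, had 0.931, 0.939 and 1.36 CPM in knockout and 0.883, 0.727 and 1.94 in wild type. Library 4 was the highest in each genotype, and the counts were only 32 to 68 per library. Its log2 difference between genotypes was −0.12 (SE 0.38), 0.22 within the libraries 2 and 3 and −0.51 within the libraries 4.

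Cd83 (chromosome 13, 43785107 to 43803130, plus strand) encodes a surface protein of activated antigen-presenting cells that holds CD86 and MHC class II molecules at the surface by hindering the ubiquitin ligase MARCH1. Its levels were 455, 406 and 548 CPM in the knockout libraries 2, 3 and 4 and 358, 299 and 488 CPM in wild type. Within each number the knockout library was the higher, but wild-type library 4 exceeded the knockout libraries 2 and 3, so the genotypes overlapped. The log2 difference was 0.30 (SE 0.17) over all libraries, 0.39 within the libraries 2 and 3, and 0.17 within the libraries 4. Slamf1 (chromosome 1, 171767127 to 171801184, plus strand) encodes a receptor of lymphocytes that binds itself on the facing cell. It had 95.2, 69.7 and 55.2 CPM in knockout and 62.0, 67.3 and 51.9 in wild type. Knockout library 2 stood above the other 5 libraries, which overlapped. The log2 difference of Slamf1 was 0.28 (SE 0.18).

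Cd86 apart, 0 of the 8 genes were called between the genotypes by edgeR, by DESeq2 (2.73% of the genes it adjusted were called) or by limma-voom (0.353%). None of the 8 had an unadjusted edgeR p under 0.05, as 13.4% of tested genes had. Over these 8 the median log2 difference was −0.01, with 3 positive and 5 negative, and over all tested genes it was also −0.01. In the libraries 2 and 3 alone, where edgeR called 24% of genes, Cd86, Pdcd1lg2 and Cd83 were called. Of the 9 genes only Cd86 had no overlap between the genotypes, a property of 18.5% of all tested genes.

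**Figure D2:**
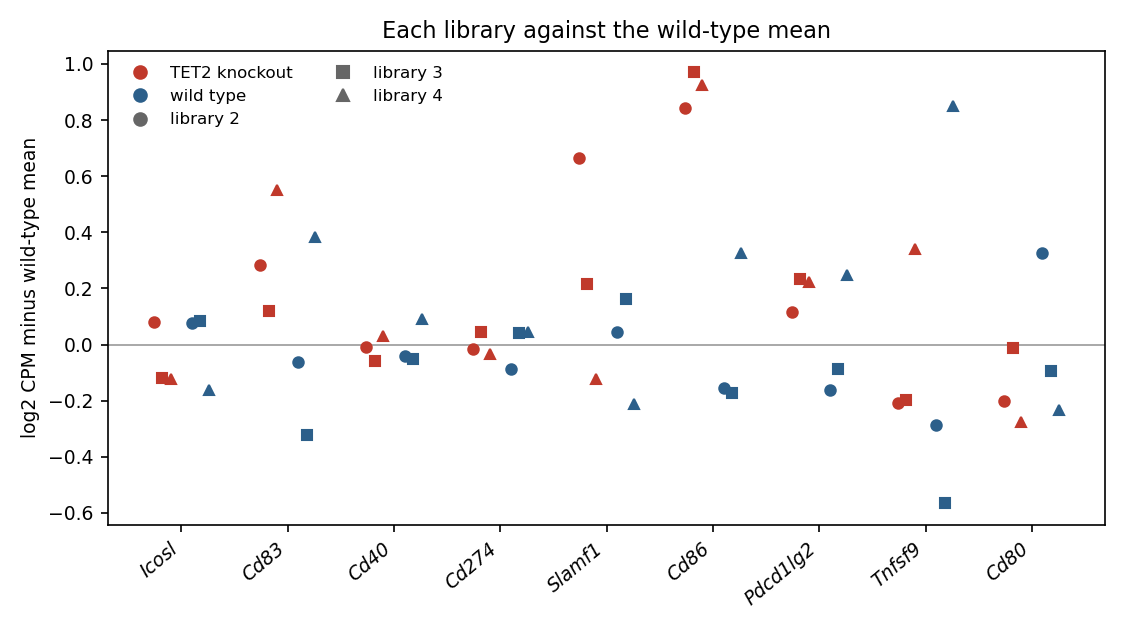
Each library's log2 CPM minus the mean log2 CPM of the 3 wild-type libraries of the same gene, for the 9 genes (red, TET2 knockout; blue, wild type; the symbol gives the library number). The knockout points of Cd86 lie together and above all wild-type points, while in Cd83 and Tnfsf9 the triangles of the libraries 4 are the highest in each genotype.

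The contrast of the libraries numbered 4 with those numbered 2 and 3 played no part in choosing the genes, and 2 of the 9 passed its threshold, both higher in the libraries 4. Cd83 was 1.38-fold higher (log2 0.46, SE 0.09, edgeR adjusted p = 0.00928), and both libraries 4 exceeded all 4 others. Tnfsf9 was 1.89-fold higher (log2 0.91, SE 0.24, edgeR adjusted p = 0.0308), also without overlap. In this contrast 7.83% of tested genes were called higher and 6.95% lower. The call of Cd83 held when any of the libraries 2 and 3 was left out (edgeR adjusted p 0.00415 to 0.0349). That of Tnfsf9 was lost without knockout library 3 (edgeR adjusted p = 0.0644), wild-type library 2 (0.0624) or wild-type library 3 (0.0999).

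Slamf1 was lower in the libraries 4, at 0.733 times the level of the others (log2 −0.45, SE 0.13), and just missed the threshold (edgeR adjusted p = 0.0526). It passed with library totals in place of TMM scaling (edgeR adjusted p = 0.0269), without robust dispersion (0.0332) and with no filter on low counts (9.91e-08). It also passed without knockout library 2 (0.0178) and without knockout library 3 (0.0262). Slamf1 missed the threshold with RLE size factors (edgeR adjusted p = 0.0555), without wild-type library 2 (0.0714) and without wild-type library 3 (0.124). Cd86 differed by 0.25 (SE 0.10, edgeR adjusted p = 0.113) and Pdcd1lg2 by 0.21 (SE 0.10, edgeR adjusted p = 0.165). Icosl, Cd40, Cd80 and Cd274 differed by −0.17, 0.10, −0.27 and 0.01 on the log2 scale, with edgeR adjusted p from 0.131 to 0.929.

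The dendritic cell list also summed higher in the libraries 4 (288 to 336 CPM) than in the others (202 to 237 CPM), of which Ccr7 made up nearly all, while the 9 markers without Ccr7 summed to 5.17 to 6.31 CPM against 4.84 to 6.67 CPM. Erythroid markers summed to 16.9 to 21.7 CPM in the libraries 4 and 8.15 to 13.999 CPM in the others. The part of either in the differences of Cd83 and Tnfsf9 was not tested, and the labels do not say what the library numbers stand for. The genotype difference changed with the library number in none of the 9 genes by edgeR at the adjusted threshold. At an unadjusted p under 0.05 only Cd86 did so.

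**Figure D3:**
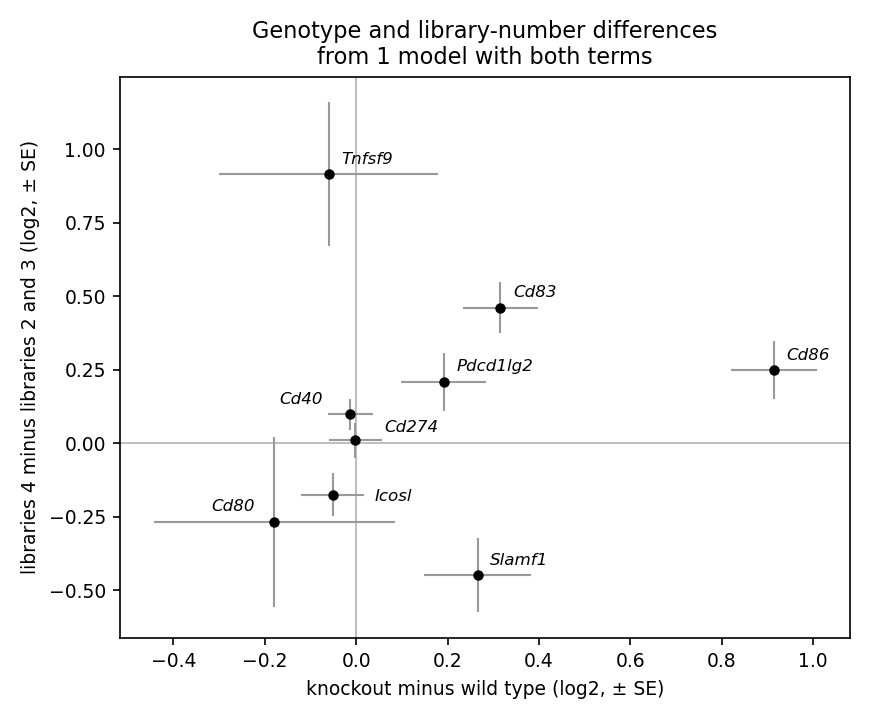
Fitted log2 difference of knockout minus wild type (horizontal) against that of the libraries numbered 4 minus those numbered 2 and 3 (vertical), from 1 edgeR model with both terms; bars are ± 1 SE and each point is 1 of the 9 genes. Cd86 lies farthest to the right, Cd83 and Tnfsf9 lie at 0.46 and 0.91 on the vertical axis, and Cd40 and Cd274 lie near the origin.

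With the library number 4 as a term in the model, the genotype difference of Cd86 was 0.91 (SE 0.09) and that of Cd83 was 0.32 (SE 0.08). Both stayed in the direction seen without the term. In this model 4.4% of tested genes were called, and Cd83 was not among them.

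The rest of the costimulatory pathway was followed in 8 lists, which held 106 genes of the table, 83 of them tested. None of the 83 was called by edgeR or by limma-voom. By DESeq2, which called 2.73% of the genes it adjusted, 4 were called, among them Icam1 (DESeq2 adjusted p = 0.00442), Cd74 (0.0192) and Cd244 (0.0367). At an unadjusted edgeR p under 0.05 there were 20 of the 83, a share to be read beside the 13.4% of all tested genes. With the library number as a term (4.4% of all tested genes called), Icam1 and Irf9 were called higher in knockout, and Slamf6 and Slamf7 lower (Irf9 and Slamf7 were named after their values were seen).

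Among 7 tested relatives and partners of the B7 ligands the median log2 difference was 0.02, with 5 positive and 2 negative. Lgals9, which encodes galectin-9, had 152 ± 20.9 CPM in knockout and 123 ± 4.69 in wild type (log2 0.30, SE 0.10, edgeR adjusted p = 0.267). Tnfrsf14, the HVEM receptor that pairs with BTLA, had 19.99 ± 5.34 and 16.7 ± 2.29 CPM (log2 0.26, SE 0.19). Of 15 TNF family ligands only 5 passed the filter, all with positive differences and a median of 0.13. The 2 with the smallest p were Lta, encoding lymphotoxin alpha (66.7 ± 4.35 and 60.7 ± 4.15 CPM), and Tnfsf10, encoding the death ligand TRAIL (13.1 ± 2.74 and 11.04 ± 1.58 CPM). Neither passed the threshold (edgeR adjusted p = 0.513 and 0.557).

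The SLAM family, to which Slamf1 belongs, held differences of both signs. Of 7 tested genes 4 were positive and 3 negative (median 0.03). An unadjusted edgeR p under 0.05 was found for 5, 2 higher and 3 lower (13.4% of all tested genes). Slamf6, a self-binding receptor like SLAMF1, had 125 ± 1.21 CPM in knockout and 146 ± 5.40 in wild type (log2 −0.23, SE 0.06, edgeR adjusted p = 0.202; 0.0381 with the library number as a term). Cd244, the receptor for CD48, had 2.84 ± 0.574 and 4.57 ± 0.436 CPM (log2 −0.69, SE 0.19, edgeR adjusted p = 0.202). Both were lower in every knockout library than in any wild-type library, and Slamf1 overlapped. The genotypes did not overlap in 18.5% of all tested genes.

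The 20 genes of CD40 signalling had a median of −0.04, with 6 positive and 14 negative. Of them 3 had an unadjusted edgeR p under 0.05 (13.4% of all tested genes). Nfkbie, an inhibitor of NF-kB, had 152 ± 13.1 CPM in knockout and 132 ± 1.71 in wild type (log2 0.21, SE 0.08). Traf3, which restrains signalling from CD40, had 216 ± 4.39 and 244 ± 11.03 CPM (log2 −0.18, SE 0.07), and neither passed the threshold (edgeR adjusted p = 0.309 and 0.318). In the contrast of the libraries 4, in which Cd83 and Tnfsf9 were higher, 5 of these 20 were called higher and 0 lower (7.83% and 6.95% of all tested genes). Those 5 were Traf1 (log2 0.44), Traf2 (0.21), Nfkbia (0.25), Birc2 (0.21) and Tank (0.42), named after their values were seen.

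Among 7 tested genes for the surface turnover of CD86 and its relatives the median was −0.03, with 3 positive and 4 negative. Cd74, the invariant chain of MHC class II, had 17086 ± 1171 CPM in knockout and 13798 ± 463 in wild type (log2 0.31, SE 0.10, edgeR adjusted p = 0.267). Cmtm6, whose product keeps PD-L1 at the surface, had 293 ± 10.3 and 258 ± 6.23 CPM (log2 0.18, SE 0.07, edgeR adjusted p = 0.307), while Cd274 itself was level. March1, the ligase that removes CD86 from the surface, was looked up after the values were seen and had 351 ± 23.6 and 326 ± 9.03 CPM (log2 0.11, SE 0.07, edgeR adjusted p = 0.557).

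The 16 B cell activation markers had a median of 0.14, with 12 positive and 4 negative. Of them 2 had an unadjusted edgeR p under 0.05 (13.4% of all tested genes). Icam1, an adhesion ligand for T cells, had 81.5, 73.1 and 82.8 CPM in the knockout libraries and 62.6, 60.6 and 60.5 CPM in wild type (log2 0.37, SE 0.07, edgeR adjusted p = 0.113; 0.0139 with the library number as a term). Its genotypes did not overlap, which held for 2 of the 16 markers and for 18.5% of all tested genes. Cd72, a coreceptor that dampens antigen receptor signals, had 482 ± 28.9 and 417 ± 11.7 CPM (log2 0.21, SE 0.07, edgeR adjusted p = 0.292). Icam1 shares 491 exon bases and Cd72 1423 with a gene on the opposite strand, and since strand was not used in counting their levels are less certain. Of 10 T cell counter-receptors, 6 did not pass the filter, among them Cd28, Ctla4, Icos and Pdcd1. The adhesion receptor gene Cd2, also made by mouse B cells, had 255 ± 10.97 and 226 ± 17.9 CPM, and Tnfrsf4, encoding OX40, had 4.72 ± 0.133 and 5.95 ± 1.01 CPM (edgeR adjusted p = 0.392 and 0.407).

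The 17 tested transcription factors that are known to act on B7 or PD-L1 genes, or on B cell state, had the highest median of the 8 lists, 0.16, with 14 positive and 3 negative. Of these 7 had an unadjusted edgeR p under 0.05, all higher in knockout (13.4% of all tested genes, in either direction). Irf1, a factor that activates Cd274 after interferon, had 336, 217 and 236 CPM in the knockout libraries 2, 3 and 4 and 169, 208 and 166 CPM in wild type (log2 0.54, SE 0.16, edgeR adjusted p = 0.224). Knockout library 2 was the highest of the 6, which was also so for Slamf1, while in Cd86 it was the lowest knockout library. The level of Irf1 is less certain, since 135 of its exon bases are shared with a gene on the other strand.

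**Figure D4:**
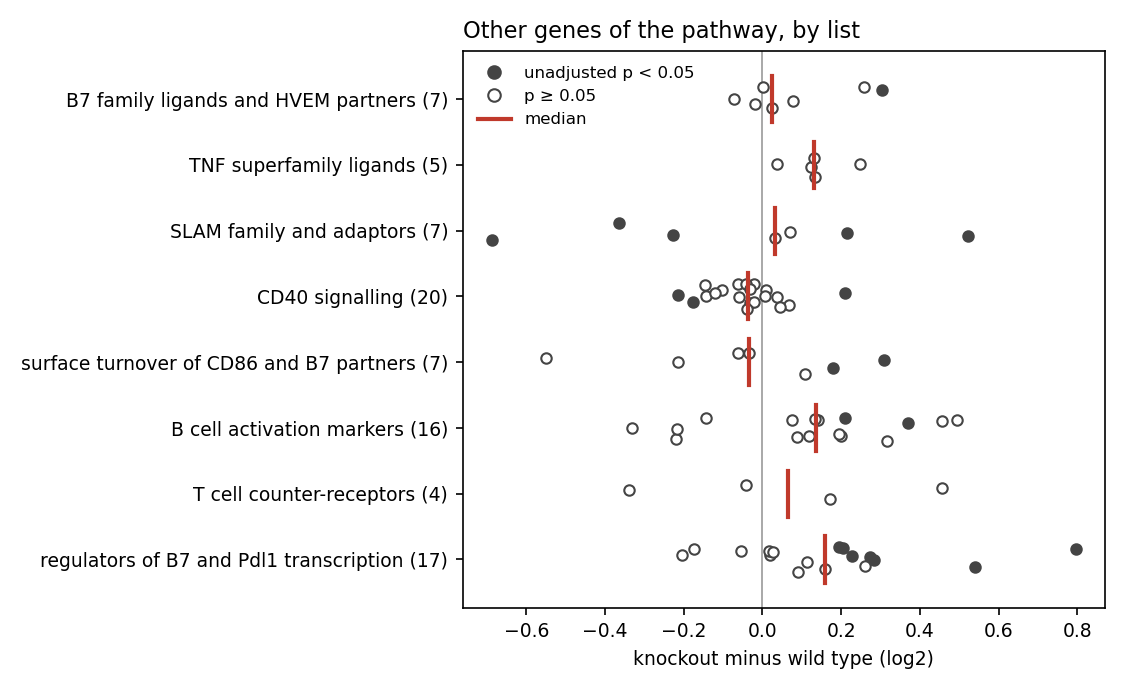
Log2 difference of knockout minus wild type for the tested genes of the 8 lists, 1 point per gene, with the number of genes in brackets; filled points have an unadjusted edgeR p under 0.05 and the red line is the median. Medians run from −0.04 in CD40 signalling to 0.16 in the transcription factors, and no gene passed the adjusted threshold.

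Over the 6 libraries, the genes whose log2 CPM was most like that of Cd86 were Slu7 (Pearson r = 0.997), Capns1 (0.996), Cks1b (0.993), Aldh9a1 (0.989) and Ptms (0.989), of 11171 genes compared. Slu7 had 112 CPM in knockout and 104 in wild type, so that a high likeness went with a much smaller difference than in Cd86. Cks1b, a cyclin kinase subunit, had 3.38 and 2.08 CPM. As many as 454 genes had r over 0.9, the 6 points are 3 libraries of each of 2 genotypes, and none of the 5 genes was called between them (edgeR adjusted p 0.202 to 0.470). Among the other 8 genes of the set the closest to Cd86 were Pdcd1lg2 (0.822) and Cd83 (0.733), which share with it the higher wild-type library 4.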

How the data were processed

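The values analysed are raw counts of fragments for each gene name, as deposited by the authors, from naive B cells of 3 TET2 knockout and 3 wild-type libraries. RNA was extracted with Trizol and a column kit and made into stranded mRNA libraries, per the labels' protocols. Counting was done by featureCounts 1.5.1 on the exons of GENCODE vM3 (GRCm38), in pairs and without a strand option, per the file headers, so overlapping genes on opposite strands cannot be separated. Alignment was with STAR 2.3.0e to GRCm38.p3, per the submitters' processing notes. The deposited table also gives each gene's summed exon length, used for RPKM, and 6 further columns of counts that match no sample and were not used.

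Of 41053 gene names, 13604 passed filterByExpr (minimum count 10). CPM used TMM-scaled library sizes. The genotypes were compared over all tested genes with the quasi-likelihood F test of edgeR 4.0.16 (R 4.3.3, robust dispersion), and p-values were adjusted after Benjamini and Hochberg (threshold 0.05). The contrast of the libraries numbered 4, and its interaction with genotype, came from the same kind of fit with genotype in the model. Standard errors are the log2 change divided by the square root of F. The fits were tested on simulated counts. Alternatives were other scalings and filters, DESeq2 1.42.0, limma-voom (limma 3.58.1), a replicate block, a term for the libraries 4, the libraries 2 and 3 alone, Y-linked genes and Xist left out, and each library left out.

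The genes of the set, the lists and the alternatives were chosen with earlier results of these data known. The set's 9 genes are always named, and from each pathway list the genes past the threshold, or, failing any, the 2 of smallest p. A gene that this rule names is not reported here. The 5 genes with the highest Pearson r are named for likeness to Cd86, with pseudogenes, receptor segments and clone, Gm or Rik names left out. Replicate libraries of a genotype differed by more than sampling noise. Promoter windows came from RefSeq (GRCm38.p6).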

Additional observations from a re-analysis of the deposited data

How the results depend on the processing

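Cd86 kept its direction in all alternatives run, with log2 differences from 0.80 to 1.08. The order of the 9 mean levels over all libraries was kept with library totals in place of TMM scaling, and in CPM without length. The number of genes called between genotypes was 55 and became 262 with no filter on low counts (61.1% higher in knockout), 350 with DESeq2 (56.9%), 599 with the term for the libraries 4 (58.9%) and 3307 in the libraries 2 and 3 alone. With the stricter filter (CPM of at least 1 in 3 libraries) it was 38. Leaving out each library gave 17 to 900, with 70.0% higher without wild-type library 4, which gave the 900. With a replicate block it was 85, and the Cd86 difference, by which the genes were chosen, was 0.91. Same-numbered libraries correlated by 0.0857, 0.209 and 0.379 in their deviations from the genotype means, so the numbers were not taken to pair the samples. Between the libraries 4 and the others 2011 genes were called, and 508 to 1903 with a library left out (508 without wild-type library 3, 812 without knockout library 3). The change of the genotype difference with library number was called in 162 genes, in 715 with no filter and in 69 without robust dispersion. The difference of Cd274 between the libraries 4 and the others was 0.01 and ran from −0.0244 (without wild-type library 2, where it reversed) to 0.0439 (without wild-type library 3). Cd86 passed in that contrast with no filter (edgeR adjusted p = 0.00881). Depth limits Cd80 and Tnfsf9, with 21 to 68 counts per library. The causes of these changes were not tested.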
